A study of Mus musculus with 2 samples.

Results

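The clustered histone genes are the histone genes that lie side by side in the Hist1, Hist2, Hist3 and Hist4 clusters of the mouse genome. All 67 genes of 31053 in the deposited gene list whose symbol begins with Hist1h, Hist2h, Hist3h or Hist4h were taken. They comprise 6 genes of the linker histone H1, 18 of H2A, 18 of H2B, 12 of H3 and 13 of H4. Their transcripts were counted in single-cell RNA sequencing libraries of bone marrow cells labelled as haematopoietic stem cells (HSCs), which give rise to every blood lineage. Each group has 1 library, so there are 2 libraries, both from wild-type C57BL/6J mice given as 6 to 8 weeks old. Cells of naive mice went into the first, here called the naive library. The other, the Listeria library, holds cells taken 6 weeks after a challenge with Listeria monocytogenes, an intracellular bacterium. The number of pooled mice and the sorting gate are not given in the sources used here, nor whether the age refers to challenge or to sampling.

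Core histones H2A, H2B, H3 and H4 form the protein spool that DNA wraps around, and H1 binds the DNA between spools. Cells make most clustered histone mRNA in S phase, when new DNA has to be packaged, and degrade it when replication ends. Most of these mRNAs have no poly(A) tail. They end just after a short hairpin, the histone stem-loop, which is bound by the stem-loop binding protein Slbp. A few clustered genes can also give polyadenylated transcripts, which persist in cells that have left the cycle. In haematopoiesis, most long-term stem cells are quiescent, whereas early B-lineage cells divide rapidly. The libraries here were primed on poly(A), so a level below is that of the captured transcripts and not of all mRNA of the gene. Each unique molecular identifier (UMI) stands for 1 captured transcript from its 3′ end, so levels were not divided by gene length.

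The stem-loop was looked for in the GENCODE vM21 transcript models (GRCm38). The pattern was a 6-base stem beginning with GG and ending with CT, a 4-base loop beginning with T and the matching strand. It was in the models of 46 of the 67 members (68.7%), against 26 of 21834 other protein-coding genes (0.119%). The sequences below were chosen because they belong to the most abundant members, to members with high or low division ratios, or, for Hist1h2bb, to those with the lowest Listeria level relative to the naive one. The stem-loop is in capitals, and 5 bases are shown on each side.
Hist1h3b: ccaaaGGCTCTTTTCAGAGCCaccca
Hist1h2ab: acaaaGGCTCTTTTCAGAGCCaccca
Hist1h3c: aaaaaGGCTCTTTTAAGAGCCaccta
Hist1h2bb: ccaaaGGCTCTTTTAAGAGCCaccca
Hist1h2ae: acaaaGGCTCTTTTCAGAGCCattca
Hist1h1c: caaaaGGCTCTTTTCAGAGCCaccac
Hist1h4d: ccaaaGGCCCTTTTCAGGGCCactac
Hist1h4c: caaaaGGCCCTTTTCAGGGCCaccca

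The hairpin letters split by histone type. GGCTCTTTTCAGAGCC was in 26 members of types H1, H2A, H2B and H3, and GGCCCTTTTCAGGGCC was in 7 members, all of type H4. The stem-loop was in the models of 12 of 13 H4 members and of 10 of 18 H2B members. Of the 21 models without it, 12 run only from start to stop codon, so for them the annotation does not reach the place where the hairpin would be. Models of Hist1h2bc and Hist2h2be, H2B genes known for polyadenylated transcripts, are longer and have no stem-loop. What follows the hairpin also differed. In Hist1h3b the model ends 51 bases after it, in Hist1h2ab 11 bases, in Hist1h2bb 23 bases and in Hist1h3c 74 bases. In Hist1h1c it runs on for 840 bases, in Hist1h4d for 770, in Hist1h4c for 454 and in Hist1h2ae for 151.

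Of the members, 54 lie on chromosome 13 (chr13:21715763-23934851, GRCm38), 10 on chromosome 3 (chr3:96219865-96270132), 2 on chromosome 11 and 1, Hist4h4, on chromosome 6. Within 500 bases of each other there were 12 head-to-head pairs of start sites, and each pair joined an H2A gene to an H2B gene. The start sites in a pair lay 176 to 306 bases apart. The stretch between Hist1h2ae and Hist1h2bg is the shortest of these. The 150 bases before the start site are printed for Hist1h2ae, the member with the most UMIs, and for members with high and low division ratios (RefSeq, GRCm38.p6, strand of the gene, 5′ to 3′). Capitals mark any match, on either strand, to the letters CCAAT, to the TATA box letters TATAAA, to the H1 promoter element AAACACA or to the octamer ATTTGCAT; no motif contains another.
Hist1h2ae, chr13:23571221-23571370, minus strand: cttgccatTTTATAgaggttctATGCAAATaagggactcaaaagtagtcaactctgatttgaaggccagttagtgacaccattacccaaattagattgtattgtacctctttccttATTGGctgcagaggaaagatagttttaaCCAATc
Hist1h3b, chr13:23752195-23752344, plus strand: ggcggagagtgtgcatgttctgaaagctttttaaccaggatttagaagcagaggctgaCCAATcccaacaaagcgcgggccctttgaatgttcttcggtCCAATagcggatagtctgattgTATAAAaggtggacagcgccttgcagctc
Hist1h1b, chr13:21780626-21780775, minus strand: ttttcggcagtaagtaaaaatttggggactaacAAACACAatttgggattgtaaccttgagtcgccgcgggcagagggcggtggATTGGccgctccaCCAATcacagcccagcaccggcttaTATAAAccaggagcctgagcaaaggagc
Hist1h1c, chr13:23738657-23738806, plus strand: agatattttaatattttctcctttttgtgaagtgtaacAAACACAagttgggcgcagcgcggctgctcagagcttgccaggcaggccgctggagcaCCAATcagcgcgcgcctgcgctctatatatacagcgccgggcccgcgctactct

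Over the 250 bases before to 50 after the start site, CCAAT or its reverse was in 53 of the 62 members with a promoter entry (85.5%), against 37.4% of all 32851 promoters in the table. It was in all matched promoters of H1, H2A, H2B and H3 and in 3 of 12 of H4. AAACACA was in 5 of 6 H1 promoters (83.3%), against 7.18% of all promoters. ATTTGCAT was in 7 of 18 H2A promoters (38.9%) and 6 of 16 H2B promoters (37.5%), against 1.74% of all, and in none of H1, H3 or H4. TATAAA was in 35 of 62 (56.5%), against 13.6%. Windows of head-to-head partners overlap, so the same match can count for both genes, as the octamer of Hist1h2ae and Hist1h2bg does. A match of letters describes the window and does not show that a factor binds there.

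The naive library held 64619150 UMIs and the Listeria library 43895966. Cells with at least 2500 UMIs, at least 500 genes and at most 10% mitochondrial UMIs were kept, which left 6375 naive and 4839 Listeria cells, with a median of 6972 and 7239 UMIs. The kept cells shared 14 barcodes between the libraries. Although both libraries are labelled HSCs, cells gated on B-lineage markers (such as Cd79a and Pax5) made up 1379 of the naive cells (21.6%) and 392 of the Listeria cells (8.10%), and cells gated on HSC markers 1136 (17.8%) and 978 (20.2%). Since there was 1 library per group, no test between groups was possible: intervals below are exact 95% intervals that cover counting error only, and library and treatment cannot be told apart. Dividing cells were taken as those with a UMI of both Mki67, a proliferation marker, and Top2a, a topoisomerase of dividing cells. They made up 1463 naive cells (22.9%, 95% Clopper-Pearson interval 21.9 to 24.0) and 812 Listeria cells (16.8%, 15.7 to 17.9). Cells with a UMI of neither gene numbered 3497 and 2742. After every cell was thinned to 2500 UMIs, the dividing share was 16.5% (naive) and 10.8% (Listeria). Dividing cells were deeper, with a median of 10900 and 11634.5 UMIs against 6235 and 6505 in cells with neither gene.

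Transcripts of 65 of the 67 members were detected, and 51 members had at least 200 UMIs over both libraries. The testis-type genes Hist1h2ba and Hist1h2aa had no UMI in any kept cell, Hist1h2bq had 1 UMI and Hist2h2aa2 had 2. Many members are near copies of each other: in the models of 27 members, over 50% of all 90-base windows also occur in another gene, and in 6 members none do. A read from a shared window cannot be assigned to 1 gene, so the values of single members are less certain than their sums by histone type. Members with over 50% shared windows had median log2 division ratios of 3.88 (naive) and 4.03 (Listeria), and the others 2.59 and 2.52.

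Clustered histone transcripts were higher in dividing cells than in cells with neither Mki67 nor Top2a, in both libraries and in each of the 5 histone types. In the naive library, the members together gave 15050 counts per 1e6 UMIs (CPM) in dividing cells (interval 14992 to 15108) and 1499 CPM in cells with neither gene (1483 to 1515). That is a log2 ratio of 3.33 (3.31 to 3.34), or 10.0-fold. In the Listeria library the levels were 8924 CPM (8865 to 8983) and 1046 CPM (1032 to 1061), a log2 ratio of 3.09 (3.07 to 3.11), or 8.53-fold. Cells with a UMI of only 1 of the 2 genes had 1736 and 1210 CPM, close to the cells with neither. Clustered histone mRNA made up 1.51% of all UMIs of naive dividing cells and 0.892% of those of Listeria dividing cells. A part of the signal in cells with neither gene comes from free RNA in the droplets. Its amount was estimated from neutrophil marker transcripts in HSC-gated cells, and it would account for 50.4 of the 1499 CPM in the naive library and 32.2 of the 1046 CPM in the Listeria library. With free RNA subtracted, the log2 ratios were 3.37 and 3.13.

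In the naive library, 48 members had at least 200 UMIs over the compared cells; 46 were over 2-fold higher in dividing cells and none was over 2-fold lower. Among all 9496 genes measured in this way, 11.4% were over 2-fold higher and 11.3% over 2-fold lower. The members' median log2 ratio was 3.43, against -0.02 over all genes. In the Listeria library, 38 of 39 measured members were over 2-fold higher and none was lower, against 7.95% and 5.84% of 8817 genes, with a median of 2.66. Without B lineage-gated cells, a choice made after seeing the data, the log2 ratio of the summed members was 2.47 (naive) and 2.56 (Listeria). Then 29 of 36 naive members were over 2-fold higher, against 6.68% of 8696 genes, and 30 of 33 Listeria members, against 5.22% of 8488 genes. No member was over 2-fold lower without these cells, against 3.67% and 3.44% of genes. With all gates in, the naive members under 2-fold were Hist1h1c and Hist4h4, the latter named after its values were seen, and the Listeria member was Hist3h2a.

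By histone type, with all gates pooled, H2A differed most between the classes of cells and H4 least. H2A stood at 6018 CPM in naive dividing cells and 315 CPM in naive cells with neither gene, a 19.1-fold difference, and at 3233 and 220 CPM in the Listeria library, 14.7-fold. H3 was 17.4-fold and 13.6-fold higher in dividing cells, with 2433 against 140 CPM in the naive library. H1 was 6.74-fold and 6.88-fold higher. H2B was 6.57-fold and 4.94-fold higher, and H4 had log2 ratios of 2.32 and 2.21. With all gates pooled, the order of the types was the same in both libraries. Neighbours in that order overlapped in their intervals for naive H1 and H2B (log2 2.73 to 2.78 and 2.67 to 2.76). In the Listeria library they overlapped for H2A and H3 (3.83 to 3.93 and 3.70 to 3.84) and for H2B and H4 (2.24 to 2.36 and 2.15 to 2.27). Within a gate the order could differ. In naive B lineage-gated cells H1 had 4830 CPM in dividing cells and 848 CPM in cells with neither gene. H4 differed more there, at 1457 and 173 CPM. In naive HSC-gated cells H4 still differed least, at 575 and 254 CPM.

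With all gates pooled, single members spread widely within a type, except in H4. In the naive library the log2 ratios of measured members ran from 0.84 to 6.06 in H1, from 1.04 to 6.50 in H2A, from 1.37 to 5.66 in H2B, from 1.71 to 7.78 in H3 and from 0.99 to 2.81 in H4. Hist1h3b, an H3 gene, had the highest: 116 CPM in naive dividing cells and 0.528 CPM in naive cells with neither gene, and 72.3 and 0.320 CPM in the Listeria library. These low levels rest on 12 and 6 UMIs, so its log2 ratios of 7.78 and 7.82 have wide intervals of 6.97 to 8.73 and 6.69 to 9.27. Hist1h2af followed with 47.9 against 0.528 CPM (naive) and 37.0 against 0.267 CPM (Listeria). Hist1h3c, the most abundant H3 member, had 1669 against 18.8 CPM in the naive library and 984 against 9.06 CPM in the Listeria library, 88.8-fold and 109-fold. Hist1h1b, the linker histone H1.5, had 1480 against 22.1 CPM and 960 against 14.3 CPM, 66.9-fold in both libraries. Hist1h2ab had 789 against 13.7 CPM and 333 against 5.28 CPM. The difference of a member could depend on the gate. The H4 gene Hist1h4d had 1036 against 72.4 CPM in naive B lineage-gated cells and 289 against 134 CPM in naive HSC-gated cells.

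At the other end stood members with low ratios. Hist1h1c, the linker histone H1.2, had 583 CPM in naive dividing cells and 325 CPM in naive cells with neither gene, 1.79-fold (log2 0.84, interval 0.80 to 0.89). In the Listeria library it had 421 and 203 CPM, 2.07-fold. Hist3h2a had 42.4 and 20.5 CPM in the naive library and 30.2 and 15.4 CPM in the Listeria library. Hist1h2bc had 279 and 94.8 CPM in the naive library and 200 and 88.9 CPM in the Listeria library. These are members of the list known for polyadenylated transcripts, with Hist1h2ac (log2 2.28 and 1.82) and Hist2h2be, whose log2 ratios of 1.31 and 1.30 rest on 120 and 69 UMIs in all. Hist1h4c and Hist1h4h were as low as these, with log2 ratios of 1.22 and 1.26 in the naive and 1.21 and 1.45 in the Listeria library. In Hist1h1c and Hist3h2a, each library's level in dividing cells was above its level in the other cells, with intervals that do not overlap. For naive Hist3h2a this did not hold within every gate. Dividing cells had 52.3 CPM against 59.7 CPM in B lineage-gated cells, and 13.4 against 19.5 CPM in HSC-gated cells. They had the higher level in multipotent progenitor-gated naive cells (26.5 against 23.2 CPM) and megakaryocyte lineage-gated naive cells (42.1 against 5.80 CPM). The same 4 gates of the Listeria library were all higher in dividing cells.

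**Figure D1:**
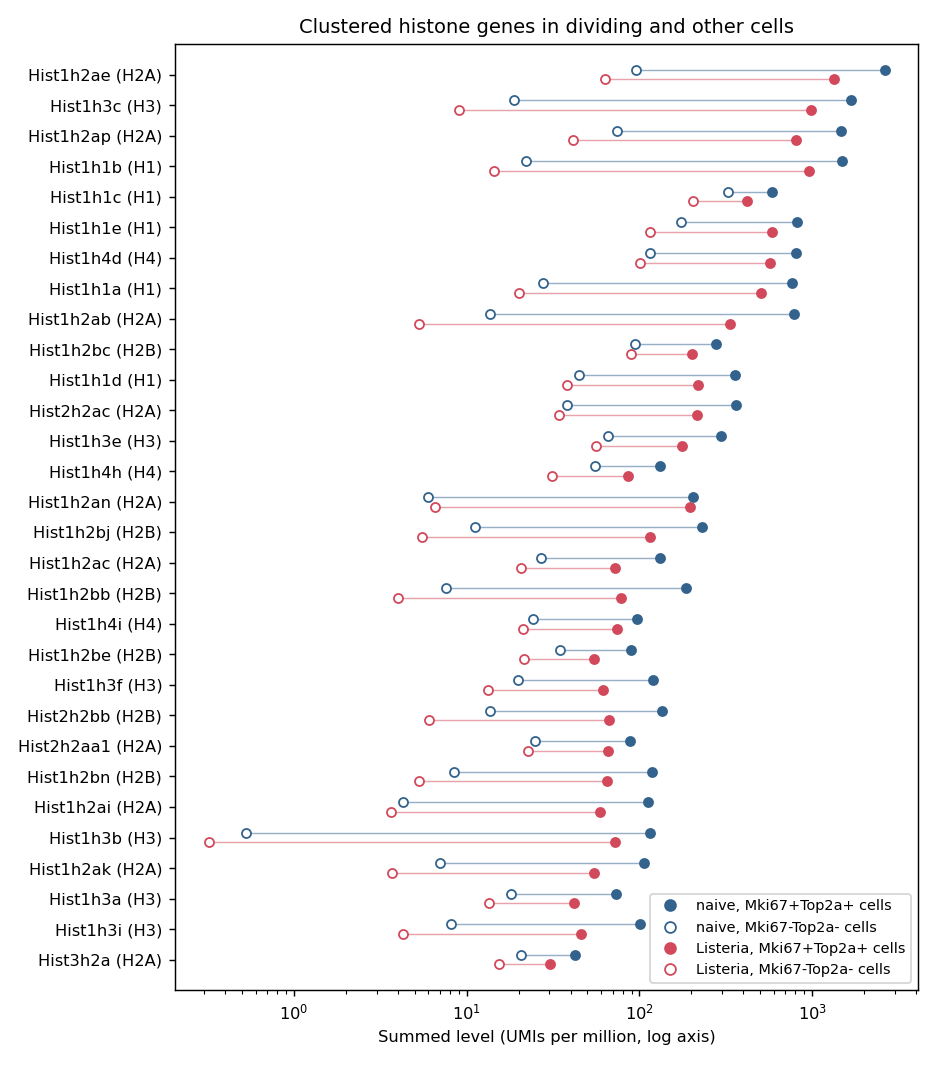
Level of the 30 members with the most UMIs, in CPM on a log axis, in Mki67+Top2a+ cells (filled points) and Mki67-Top2a- cells (open points) of the naive (blue) and Listeria (red) libraries. The lines run from 0.528 to 116 CPM for naive Hist1h3b but only from 325 to 583 CPM for naive Hist1h1c, and every red filled point lies left of its blue partner, that of Hist1h2an by the least (204 and 195 CPM).

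The make-up of the histone transcripts therefore differed between the classes of cells. In dividing cells Hist1h2ae was first, with 17.5% of all clustered histone UMIs of the naive library, and also first in the Listeria library, followed by Hist1h3c, Hist1h1b, Hist1h2ap and Hist1h1e. In cells with neither gene Hist1h1c was first, with 21.7% (naive) and 19.4% (Listeria), followed by Hist1h1e and Hist1h4d. The 5 members known for polyadenylated transcripts held 6.91% of naive histone UMIs in dividing cells and 31.3% in cells with neither gene. In the Listeria library the shares were 8.14% and 31.4%. The shares were thus close in both libraries while the levels differed.

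The annotated end of the transcript went with the division ratio. Among the 23 members whose model ends within 100 bases after the stem-loop, 11 were measured in both libraries, with median log2 ratios of 4.37 (naive) and 4.30 (Listeria). Among the 23 whose model runs further, 17 were measured, with medians of 2.28 and 1.97, and 12 of the 23 have a poly(A) signal (AATAAA or ATTAAA) in the last 50 bases of a model. The 11 measured members with no stem-loop in the model had medians of 3.92 and 3.90. The ranges overlap: from 1.26 to 7.78 with short ends and from 0.84 to 4.78 with long ends in the naive library. Hist1h2ae is the long-end member at 4.78, with a tail of 151 bases. These are descriptions of an annotation. Which of the 2 kinds of end the captured transcripts had was not tested.

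**Figure D2:**
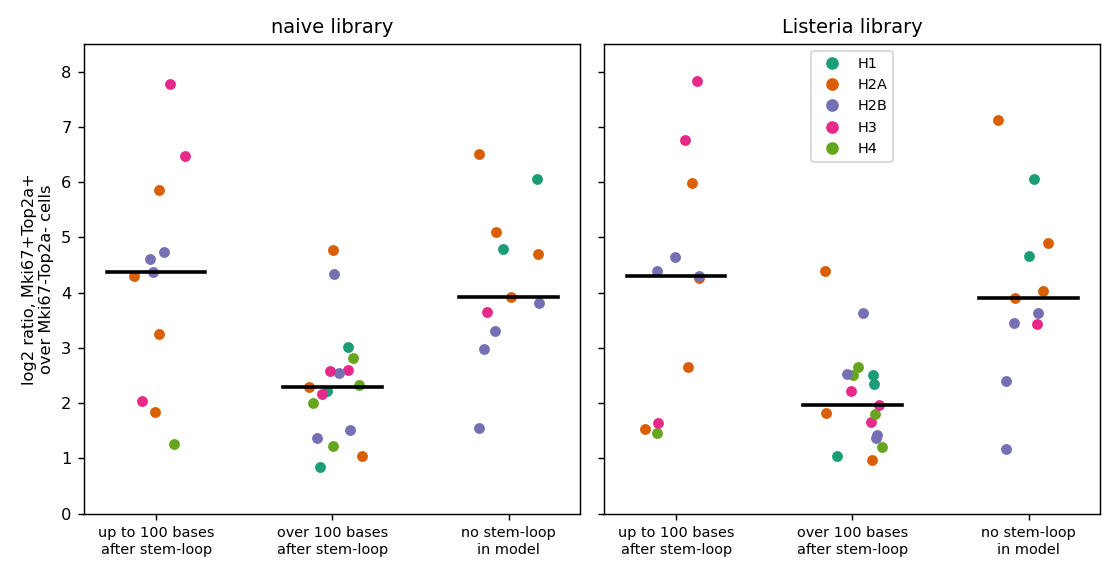
log2 ratio of Mki67+Top2a+ over Mki67-Top2a- cells for members measured in both libraries, by the annotated end of the transcript; each point is a member, coloured by histone type, and bars are medians. Members with a model that runs over 100 bases past the stem-loop have medians of 2.28 and 1.97, against 4.37 and 4.30 for those that end sooner, and the ranges overlap.

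In head-to-head pairs the partners share the DNA between their start sites, and their levels were far apart in some pairs and close in others. Hist1h2ae had 2629 CPM in naive dividing cells and its partner Hist1h2bg 45.4 CPM. Hist1h2ap had 1460 CPM and Hist1h2br 68.5 CPM, and Hist2h2ac had 361 CPM and Hist2h2be 3.92 CPM. The opposite held for Hist1h2bj (232 CPM) and Hist1h2ag (16.6 CPM). Hist1h2ak (106 CPM) and Hist1h2bn (118 CPM) were close, as were Hist1h2bf (14.9 CPM) and Hist1h2ad (20.5 CPM). With no UMI minimum, the H2A gene was the higher one in naive dividing cells in 7 of the 12 pairs, and in 1 pair neither gene had a UMI. Pair partners outside the rule for named genes were picked after their values were seen. Division ratios could also part: the log2 ratio was 4.78 for Hist1h2ae and 2.55 for Hist1h2bg, but 3.92 for Hist1h2ak and 3.81 for its partner Hist1h2bn.

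Within dividing cells the histone level went with the balance of S phase and mitosis transcripts. Dividing cells were placed in 5 bins by the share of mitosis-list UMIs (Ccnb1, Plk1, Cdc20 and others) in all UMIs of the S phase and mitosis lists, among cells with at least 10 such UMIs. These bins were chosen after the data were seen. In the naive library the summed histone level was 5108 CPM in the bin with under 10% mitosis UMIs, 11645 CPM from 10 to 20%, 19435 CPM from 20 to 40%, 22622 CPM from 40 to 60% and 19954 CPM above 60%. In the Listeria library it was 2216, 8120, 11015, 13929 and 12340 CPM. Each level differed from its neighbours by more than its interval, and the 40 to 60% bin was the highest in both. In B lineage-gated Listeria cells the level was highest above 60%, at 18639 CPM. Dividing cells with the lowest share of mitosis UMIs thus had the lowest level of captured histone transcripts. Of 20 members followed, 12 were highest in the 40 to 60% bin and 6 above 60% in the naive library, and 10 and 8 in the Listeria library. The linker histones Hist1h1a and Hist1h1b were lower again above 60%: naive Hist1h1a went from 1199 to 745 CPM and Hist1h1b from 2221 to 1548 CPM. The H2B gene Hist1h2bb was highest above 60%, at 331 CPM (naive) and 139 CPM (Listeria).

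**Figure D3:**
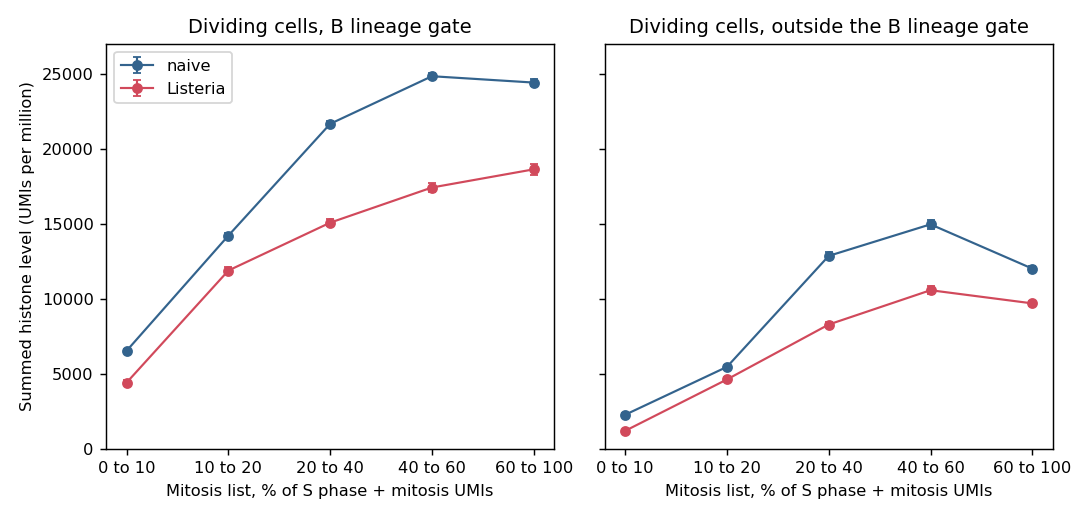
Summed clustered histone level in CPM, with 95% counting intervals, in dividing cells by the percentage of mitosis-list UMIs among S phase and mitosis UMIs; left, cells gated on B-lineage markers, right, all other dividing cells. In both panels the level is lowest below 10% (6540 and 2272 CPM in the naive library), and the Listeria library lies below the naive library in every bin.

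Cells were gated on marker lists that hold no histone gene: a cell got the class with the largest share of its markers detected, at least 50%. Cells with a tie got no class, and cells below the cut are called ungated. The gate is a range of scores and not a cell type, and 598 of the 1136 naive HSC-gated cells lie just at the cut, against 17 of the 1379 B lineage-gated cells. Among dividing cells, B lineage-gated cells had the highest histone level in both libraries: 18253 CPM in 1032 naive cells and 13631 CPM in 324 Listeria cells. Neutrophil-gated dividing cells had 11433 CPM in 20 naive and 9712 CPM in 11 Listeria cells. Megakaryocyte lineage-gated cells had 10238 and 7252 CPM, and multipotent progenitor-gated cells 8615 and 5960 CPM. HSC-gated dividing cells had 7549 CPM (71 cells) and 4837 CPM (75 cells), and ungated dividing cells 7439 and 5519 CPM. S phase and mitosis transcripts were also higher in dividing B lineage-gated than in dividing HSC-gated cells: the S phase list gave 4612 against 1707 CPM and the mitosis list 2599 against 1484 CPM in the naive library. Their part in the histone difference between gates was not tested.

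In cells with neither Mki67 nor Top2a the gates ran from 512 CPM in plasma cell-gated to 2289 CPM in megakaryocyte lineage-gated naive cells, and from 285 to 1179 CPM in the same gates of the Listeria library. HSC-gated cells had 1465 CPM (naive) and 981 CPM (Listeria), multipotent progenitor-gated cells 1486 and 1081 CPM, and B lineage-gated cells 1986 and 1094 CPM. Neutrophil-gated cells had 794 and 416 CPM. The log2 ratio of dividing cells over these was 2.37 and 2.30 in HSC-gated cells, 2.54 and 2.46 in multipotent progenitor-gated cells, 3.20 and 3.64 in B lineage-gated cells and 3.85 and 4.55 in neutrophil-gated cells. In each of these gates the dividing cells had the higher level in both libraries. The dividing share was 6.25% of HSC-gated naive cells, 7.67% of HSC-gated Listeria cells, 74.8% and 82.7% of B lineage-gated cells, and 3.13% and 11.8% of the few plasma cell-gated cells.

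**Figure D4:**
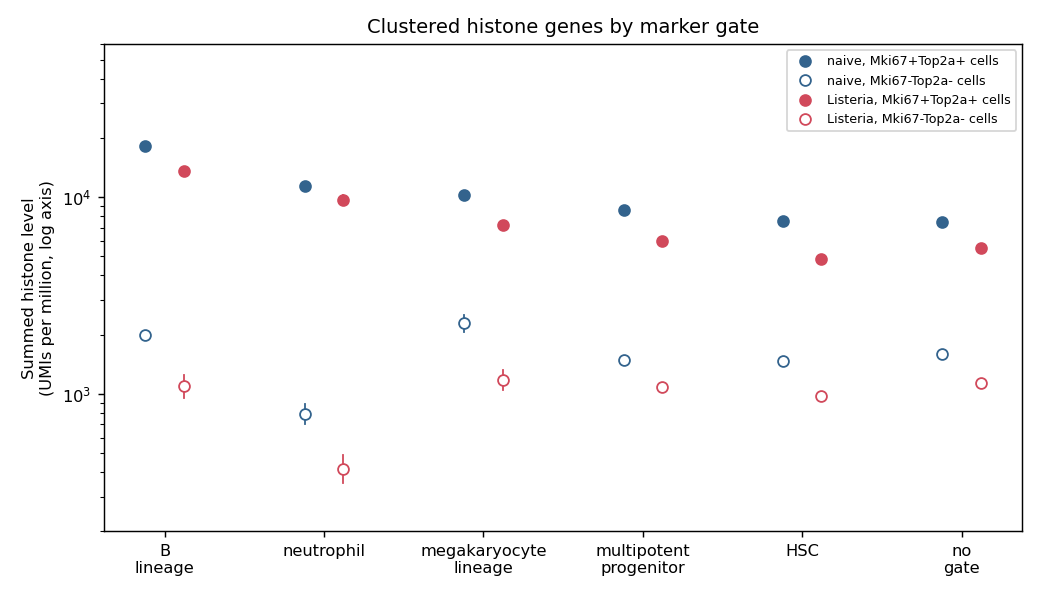
Summed clustered histone level in CPM on a log axis, with 95% counting intervals, by marker gate, in Mki67+Top2a+ cells (filled) and Mki67-Top2a- cells (open) of the naive (blue) and Listeria (red) libraries. B lineage-gated dividing cells are the highest at 18253 and 13631 CPM, and the Listeria point is below the naive point in each gate shown.

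Over all kept cells the clustered histones were lower in the Listeria library: it had 3080 CPM (3062 to 3097) and the naive library 6110 CPM (6088 to 6131), a log2 ratio of -0.99, or 0.504-fold. Of 51 measured members, 45 were over 1.5-fold lower and none was over 1.5-fold higher. Over all 10991 genes, 4.46% were over 1.5-fold lower and 3.77% over 1.5-fold higher. The log2 ratio was below 0 for all 51, with a median of -1.01 against 0.06 over all genes. Much of this went with B lineage-gated cells. Without them the levels were 2001 and 2511 CPM and the log2 ratio was -0.33. Then 12 of 43 measured members were over 1.5-fold lower and 1 over 1.5-fold higher, against 3.41% and 3.22% of 10630 genes. The member that was higher is Hist1h2an, at 17.4 CPM (naive) and 27.7 CPM (Listeria). The median without these cells was -0.36, and 40 of the 43 ratios were below 0.

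Within dividing cells the log2 ratio was -0.75 (-0.77 to -0.74). Of 48 measured members 36 were over 1.5-fold lower and none was higher, against 3.26% lower and 5.59% higher of 8407 genes, and the median was -0.74. B lineage-gated cells made up 1032 of the 1463 naive and 324 of the 812 Listeria dividing cells. Without them the levels were 8211 and 6168 CPM and the log2 ratio was -0.41. Then 12 of 37 members were over 1.5-fold lower and none higher, against 2.43% and 2.51% of 6539 genes, with a median of -0.45. Within a gate the dividing cells of the Listeria library also had the lower level: the log2 ratio was -0.42 in B lineage-gated, -0.64 in HSC-gated, -0.53 in multipotent progenitor-gated and -0.50 in megakaryocyte lineage-gated cells. Of 7 gates compared in dividing cells, 6 were lower in the Listeria library. The exception was the erythroid gate, at 7337 CPM in 17 naive and 8516 CPM in 14 Listeria cells.

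In cells with neither gene the log2 ratio was -0.52 (-0.54 to -0.49), and -0.50 without B lineage-gated cells. It was thus nearer to 0 than the ratio of dividing cells with these cells in (-0.75), and farther from 0 without them (-0.41). Of 33 measured members, 19 were over 1.5-fold lower and none was higher, against 2.57% lower and 3.37% higher of 9529 genes. The median was -0.63, and 32 of 33 ratios were below 0, the exception being Hist1h2an. All 8 gates compared in these cells were lower in the Listeria library, and 5 of them by over 1.5-fold, against 1 of 7 gates of dividing cells. The log2 ratio was -1.12 in T or NK cell-gated, -0.96 in megakaryocyte lineage-gated, -0.93 in neutrophil-gated, -0.86 in B lineage-gated and -0.84 in plasma cell-gated cells. It was -0.58 in HSC-gated, -0.53 in dendritic cell-gated and -0.46 in multipotent progenitor-gated cells. The free RNA estimate was 50.4 CPM (naive) and 32.2 CPM (Listeria), beside 1499 and 1046 CPM in these cells. Across all classes together, 7 of 10 gates were lower. Plasma cell-gated cells (96 and 34) and dendritic cell-gated cells (30 and 15) were higher. Erythroid-gated cells (21 in each library) had a log2 ratio of 0.07, with an interval of -0.01 to 0.15. The dividing share was also higher in the Listeria library for plasma cell-gated cells (3.13% and 11.8%) and dendritic cell-gated cells (6.67% and 20%), and lower for erythroid-gated cells (81.0% and 66.7%).

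The 5 types were all over 1.5-fold lower in the Listeria library over all cells, from a log2 ratio of -0.73 for H4 to -1.18 for H2A. Within dividing cells they ranged from -0.55 (H4) and -0.58 (H1) to -0.86 (H2B) and -0.90 (H2A), and in cells with neither gene from -0.42 (H3) to -0.61 (H1). Without B lineage-gated cells none of the 5 types passed 1.5-fold over all cells. The ratios in dividing cells also pool gates. In B lineage-gated dividing cells H4 had 1457 CPM (naive) and 1394 CPM (Listeria), and H1 had 4830 and 4280 CPM. In HSC-gated dividing cells H4 had 575 and 411 CPM, and H1 had 2210 and 1478 CPM.

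Hist1h2ab, an H2A gene, was the lowest measured member relative to the naive library over all cells (log2 -1.63). Its level in dividing cells was 789 CPM (naive) and 333 CPM (Listeria), with a log2 ratio of -1.25 (-1.30 to -1.19). It was lower too within dividing cells of the 4 gates in which single members were compared: 997 against 547 CPM in B lineage-gated, 310 against 174 CPM in HSC-gated, 380 against 190 CPM in multipotent progenitor-gated and 407 against 265 CPM in megakaryocyte lineage-gated cells. After it came Hist1h2bb (-1.58 over all cells), Hist1h2bp (-1.46), Hist1h4b (-1.45) and Hist1h3i (-1.43). The order differed without B lineage-gated cells: Hist1h2ab was then at -0.56, Hist1h2bb at -0.72 and Hist1h3i at -0.75, and Hist1h4c was the lowest at -1.08. Hist1h1c was lower in cells with neither gene, at 325 and 203 CPM (log2 -0.68, interval -0.74 to -0.62), and in HSC-gated cells of that class, at 329 and 191 CPM. Hist1h2ae had 2629 and 1338 CPM in dividing cells, a log2 ratio of -0.97, and -0.54 without B lineage-gated cells.

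The members closest to equal were Hist1h2bc (-0.30 over all cells), Hist1h2an (-0.42), Hist2h2aa1 (-0.49), Hist1h4i (-0.49) and Hist3h2a (-0.49). Hist1h2an, an H2A gene, stood apart. Its level in dividing cells was 204 CPM (naive) and 195 CPM (Listeria) (log2 -0.06, interval -0.14 to 0.02). In B lineage-gated dividing cells it was the higher in the Listeria library, at 318 against 260 CPM, and in megakaryocyte lineage-gated dividing cells at 139 against 78.2 CPM. Of the 90-base windows of its model, 83.9% occur in another gene and the model ends at the stop codon, so its share of reads is uncertain. Hist1h2bc had 94.8 and 88.9 CPM in cells with neither gene, a log2 ratio of -0.09 whose interval reaches 0. Within gates of that class it was lower in HSC-gated cells (97.9 and 67.9 CPM, log2 -0.53, interval -0.73 to -0.33). In multipotent progenitor-gated cells its log2 ratio was -0.23 (-0.45 to -0.02). In B lineage- and megakaryocyte lineage-gated cells it was the higher in the Listeria library, with intervals that reach 0.

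**Figure D5:**
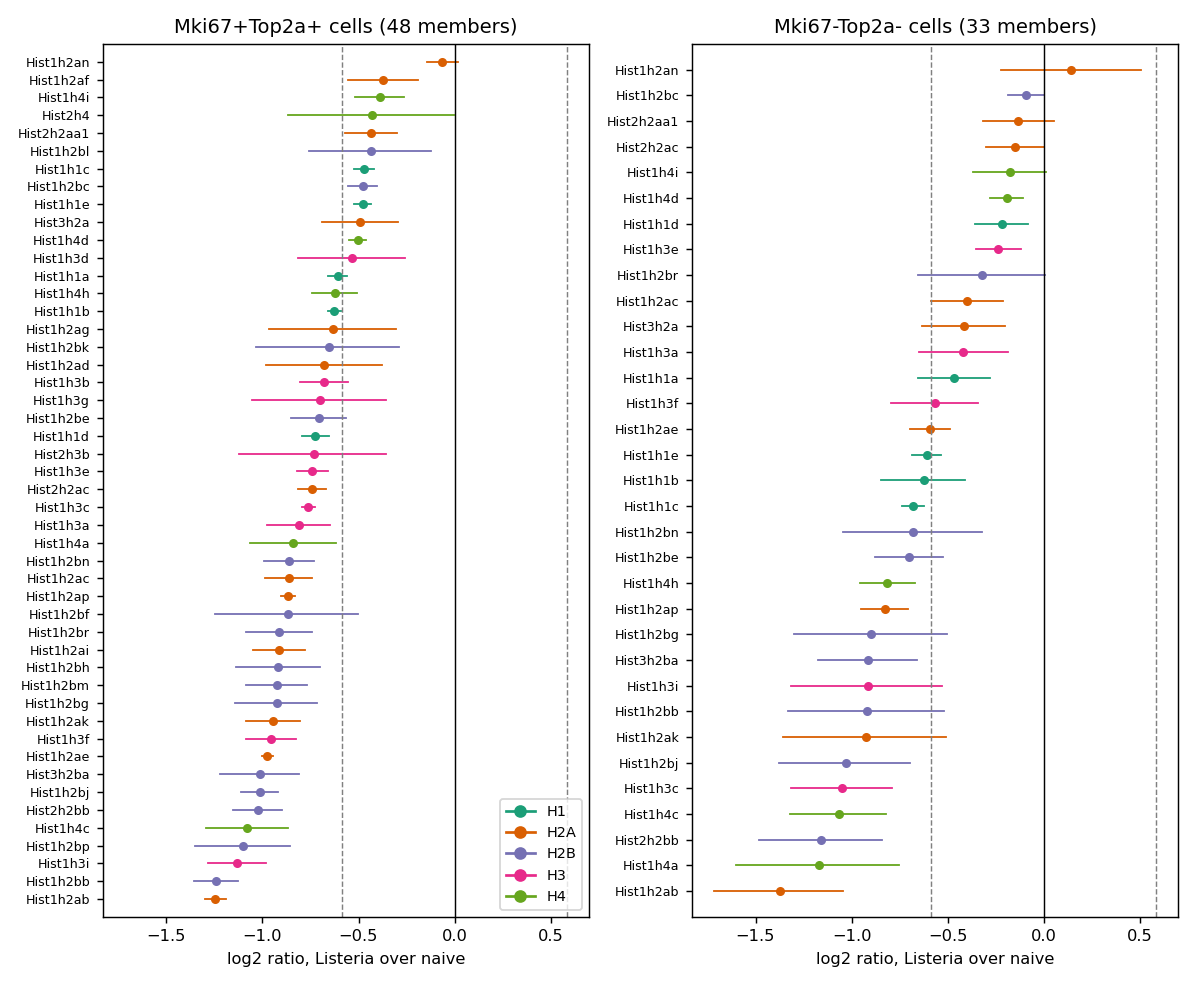
log2 ratio of the Listeria over the naive library for each measured member, with 95% counting intervals and colours by histone type, in Mki67+Top2a+ cells (left, 48 members) and Mki67-Top2a- cells (right, 33 members); dashed lines mark 1.5-fold. All 48 points on the left are below 0, from -0.06 for Hist1h2an to -1.25 for Hist1h2ab, and 32 of 33 on the right.

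At the level of single cells, naive dividing cells had a median of 113 clustered histone UMIs per 10000 UMIs, with 14.5 at the 10th and 378 at the 90th percentile. Listeria dividing cells had a median of 54.8, with 7.27 and 229. Cells with over 100 such UMIs per 10000 made up 763 of 1463 naive dividing cells (52.2%, 49.6 to 54.7) and 279 of 812 Listeria dividing cells (34.4%, 31.1 to 37.7). Outside the dividing class there were 2 such naive cells and 1 such Listeria cell. In cells with neither gene the medians were 12.9 and 8.54 per 10000.

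Lists of other genes of histone supply had lower median ratios than the clustered genes. Of 14 genes for histone mRNA processing and transcription, 13 were measured, and 6 were over 2-fold higher in naive and 4 in Listeria dividing cells, with medians of 0.88 and 0.70 and none lower. Slbp had 363 against 77.0 CPM in the naive and 309 against 68.4 CPM in the Listeria library. Casp8ap2 (FLASH), needed for processing of the 3′ end, had 121 against 44.0 CPM, the nuclease Eri1 115 against 43.0 CPM and the cleavage factor Cpsf2 87.5 against 47.4 CPM in the naive library. Of 17 histone chaperone and supply genes, 6 and 5 were over 2-fold higher and none lower. Their medians were 0.81 and 0.64. Npm1 had 1376 against 1213 CPM and Set 861 against 428 CPM in the naive library. The chaperone Asf1b, named after its values were seen, had 87.7 against 1.89 CPM there, a log2 ratio of 5.53 that is above the median of the clustered genes. Of 10 measured replacement histones outside the clusters, 3 were over 2-fold higher in each library. H2afz, the variant H2A.Z, had 1982 against 405 CPM, whereas H3f3b, which encodes the replication-independent H3.3, had 3132 against 3476 CPM in the naive library and 2863 against 2525 CPM in the Listeria library.

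Between the libraries these lists differed less. In dividing cells no gene of the processing, chaperone or replacement lists was over 1.5-fold lower or higher, and their medians were -0.05, 0.03 and -0.22. The 20 S phase genes had a median of -0.23 and the 18 mitosis genes of -0.24 in the same cells, also with none past 1.5-fold, beside -0.74 for the clustered histones. Without B lineage-gated cells the median of the clustered histones was -0.45, and medians of the other lists were not computed without them. Within gates the summed S phase list was higher in Listeria dividing cells that were HSC-gated (1707 CPM naive, 1896 CPM Listeria) or B lineage-gated (4612 and 5277 CPM). It was also higher in multipotent progenitor-gated and megakaryocyte lineage-gated dividing cells. In erythroid-, myeloid progenitor- and neutrophil-gated dividing cells it was lower. The pooled S phase median thus does not give the direction within these gates. Slbp had 363 CPM in naive and 309 CPM in Listeria dividing cells. In cells with neither gene the S phase list had a median of 0.17, beside -0.63 for the clustered histones. Whether capture or priming differed between the libraries was not tested.

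Levels were compared over 49 groups of cells, each a Mki67 and Top2a class of 1 library within a gate or outside the gates. The non-members whose log2 level was most like that of the summed members were Shcbp1 (Pearson r 0.93), Kif11 (0.93), Kif4 (0.91), Esco2 (0.91) and Aurkb (0.90), among 7585 genes compared. The groups share 2 libraries, and their depth differs, so these values are descriptions. Among members, each itself a part of the sum, the same measure was 0.97 for Hist1h2ae and 0.95 for Hist1h1e.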

How the data were processed

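The deposited files hold raw UMI counts per gene and barcode, which the authors made with Cell Ranger 3.0.2 on mm10, per the submitters' processing notes. They are not normalized, and the annotation is not given in the sources used here. The labels name a 3′ kit primed on poly(A). The files' own names mark the libraries as WT and KO, while both are labelled wild type, and the labels were followed. Counts were summed over cells and scaled to 1e6 (CPM), with exact Poisson intervals. Ratios have exact intervals from the binomial split. No doublet caller was run. Members were compared with at least 200 UMIs over the cells compared, at limits of 2-fold (division) and 1.5-fold (library). Named members were the 12 with the most UMIs, the 5 highest and 5 lowest ratios of each comparison, and the polyadenylated list. For the other lists up to 4 genes with the most UMIs were named. Members, lists and tests were chosen with earlier results of these data known, and the gate rule and mitosis bins after seeing the data. Free RNA was profiled in barcodes with 1 to 50 UMIs. Gene models came from GENCODE vM21 (GRCm38), matched by gene identifier for all 67 members, and promoters from RefSeq for 62. Python 3.11.15, numpy 2.4.6, scipy 1.17.1, pandas 2.3.3 and, for alternative scaling, edgeR 4.0.16 and DESeq2 1.42.0 in R 4.3.3 were used. The ratio step was tested on simulated data. Reads were not analysed here.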

Additional observations from a re-analysis of the deposited data

How the results depend on the processing

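No paired analysis was possible because each group has 1 library. Alternatives are given as log2 ratios of the summed members: dividing over other cells (naive, Listeria), then Listeria over naive (all cells, dividing cells, cells with neither gene), where a value moved by more than its counting interval. None changed sign. A limit of 4000 UMIs per cell gave -1.01 over all cells. A 5% mitochondrial limit gave 3.36 and 3.12, then -1.07 and -0.77 (all, dividing). Without the 5% of cells with the most UMIs the values were 3.42 and 3.06, then -1.07 and -0.87. Weighting every cell the same gave 3.35 and 3.05, then -0.80 in dividing cells. TMM factors gave 3.39 and 3.14, then -1.05, -0.84 and -0.59, and median-ratio size factors 3.38 and 3.13, then -1.05, -0.86 and -0.61. Thinning to 2500 UMIs gave 3.59 and 3.48, then -0.98 and -0.64. With free RNA subtracted the values were 3.37 and 3.13, then -1.002 over all cells. Calling dividing cells at 2 UMIs of each gene gave 3.50 and 3.36, then -0.65 in dividing cells, and classes by the S phase list 2.75 and 2.17, then -1.04 and -0.46. Without B lineage-gated cells, chosen after seeing the data, the values were 2.47 and 2.56, then -0.33 and -0.41, 29 naive members were over 2-fold higher in dividing cells, 12 members were lower and 1 higher over all cells, 12 were lower in dividing cells, and 0 types passed 1.5-fold.

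Some counts moved by over 1.5 times where the number of members measured also differed. Thinning left 23 Listeria members over 2-fold higher in dividing cells, 18 of 34 members lower in dividing cells, 12 of 24 lower in cells with neither gene, and 2 of 2 gates lower in dividing cells. Classes by the S phase list left 5 of 17 measured members lower in cells with neither gene. A minimum of 1 UMI per member gave 60 higher in Listeria dividing cells, and 36 of 64 lower and 1 higher in cells with neither gene, and a minimum of 1000 UMIs gave 19 higher and 6 of 12 lower. The cause of the other moves was not tested. Among the members named by the rule and the gates, signs turned for single values. After thinning they turned for the megakaryocyte lineage gate over all cells (0.89), for Hist1h2an in dividing cells (0.016) and, in cells with neither gene, for Hist1h2bc (0.0082), Hist2h2be (0.39) and Hist1h2an (-0.12). With 2 UMIs of each gene Hist1h2an turned in dividing cells (0.053). With classes by the S phase list, Hist1h2bc (0.10), Hist1h1d (0.025), Hist1h2af (1.001), Hist1h4i (0.0091) and Hist1h2an (-0.011) turned in the cells of low S phase UMIs. Without B lineage-gated cells, Hist1h2bc (0.043) and Hist1h2an (0.67) turned over all cells, and Hist3h2a (0.19) and Hist1h2an (0.54) in dividing cells. Hist1h3d, outside the rule, was then at 0.041 over all cells. Leaving out the barcodes kept in both libraries changed no direction or count named here.

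Depth limits the members under 200 UMIs over the compared cells. They enter no main count of members past a fold limit (the ratios of Hist2h2be are given as values only). The count of head-to-head pairs had no UMI minimum. Depth also limits the ratios of Hist1h3b and Hist1h2af, whose levels outside division rest on 12 UMIs or fewer in each library.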

Other observations

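Members of a type also differed in level, here with some chosen after their values were seen. Among H4 genes, Hist1h4d had 809 CPM in naive dividing cells and 115 CPM in naive cells with neither Mki67 nor Top2a, Hist1h4i 96.8 and 24.1 CPM, and Hist1h4a 39.9 and 7.92 CPM. Listeria values were 571 and 101 CPM, 73.9 and 21.3 CPM, and 22.3 and 3.52 CPM in the same order. H1 genes parted in the same way: Hist1h1e had 812 and 174 CPM in the naive library, Hist1h1d 359 and 44.4 CPM, and Hist1h1a 768 and 27.6 CPM, while the testis linker histone Hist1h1t had 20 UMIs in the naive and 1 UMI in the Listeria library.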
